A study of Homo sapiens with 9 samples.

Results

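The 10 genes described here are the inhibitors and partners of the D-type cyclin kinases that govern entry into the cell cycle: the INK4 inhibitors CDKN2A, CDKN2B, CDKN2C and CDKN2D, the CIP/KIP inhibitor CDKN1B, the D cyclins CCND1, CCND2 and CCND3, and the kinases CDK4 and CDK6. They were taken by symbol from a table of 56312 entries, in which each of the 10 symbols was found. CDKN2A and CDKN2B lie side by side on chromosome 9. The cells were HNES1, an embryo-derived human pluripotent stem cell line, wild type in genotype, kept in the naive state on mouse feeder cells and then plated without feeders and released towards the primed state. In the PROTAC group UNC6852 was given at 2.5 µM; it is a degrader whose other end recruits the ubiquitin ligase of VHL to EED, a PRC2 subunit. In the UNC group UNC1999, an inhibitor of the catalytic subunits EZH2 and EZH1, was given at 1 µM. The DMSO group received vehicle only. Treatment began a day ahead of the release from naive medium and was renewed daily; N2B27 medium with the tankyrase inhibitor XAV939 followed, and RNA was taken on day 5. Each group has 3 libraries, all from this 1 cell line; the protocol names ribosomal RNA depletion.

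D cyclins bind CDK4 and CDK6, and the active kinases phosphorylate RB1 and its relatives, which releases E2F transcription factors and opens the way to DNA synthesis. INK4 proteins bind CDK4 and CDK6 and keep the cyclin out, while CDKN1B (p27KIP1) acts mainly on the cyclin E and CDK2 step and is itself sequestered by D cyclin complexes. In fibroblasts and many other somatic cells, the neighbouring CDKN2A and CDKN2B genes are textbook targets of Polycomb repression and carry H3K27me3, the mark that PRC2 places. Mammalian PRC2 gathers chiefly at CpG-rich promoters. Pluripotent cells are known for a short first gap phase.

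The promoters of the CDKN2 pair, whose transcripts had 44 counts or fewer in every library, are shown first, with that of CDK6, a kinase gene whose level was higher under either compound. Each line holds the 250 bases upstream of an annotated start, on the strand of the gene, with CpG dinucleotides in capitals (RefSeq, GRCh38.p14). CDKN2A has separate starts for p14ARF at chr9:21995325-21995574 and for p16INK4a at chr9:21974858-21975107, CDKN2B has its own at chr9:22009306-22009555, and the outer CDK6 start gives chr7:92836574-92836823; all run on the minus strand.
CDKN2A p14ARF start: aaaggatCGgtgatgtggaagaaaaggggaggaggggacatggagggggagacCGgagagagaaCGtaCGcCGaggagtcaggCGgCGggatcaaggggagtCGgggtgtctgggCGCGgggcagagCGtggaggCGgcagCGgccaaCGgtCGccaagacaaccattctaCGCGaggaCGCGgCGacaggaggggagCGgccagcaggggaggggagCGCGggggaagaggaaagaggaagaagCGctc
CDKN2A p16INK4a start: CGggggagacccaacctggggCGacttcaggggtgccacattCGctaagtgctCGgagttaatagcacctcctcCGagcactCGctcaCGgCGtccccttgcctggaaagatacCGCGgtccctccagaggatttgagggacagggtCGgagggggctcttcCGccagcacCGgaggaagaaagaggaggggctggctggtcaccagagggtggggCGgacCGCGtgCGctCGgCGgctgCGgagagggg
CDKN2B: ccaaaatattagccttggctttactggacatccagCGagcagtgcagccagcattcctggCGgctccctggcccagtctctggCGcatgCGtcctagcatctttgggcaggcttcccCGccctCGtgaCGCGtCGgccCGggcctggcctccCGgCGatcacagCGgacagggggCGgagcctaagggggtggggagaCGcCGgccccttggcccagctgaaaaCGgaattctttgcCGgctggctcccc
CDK6: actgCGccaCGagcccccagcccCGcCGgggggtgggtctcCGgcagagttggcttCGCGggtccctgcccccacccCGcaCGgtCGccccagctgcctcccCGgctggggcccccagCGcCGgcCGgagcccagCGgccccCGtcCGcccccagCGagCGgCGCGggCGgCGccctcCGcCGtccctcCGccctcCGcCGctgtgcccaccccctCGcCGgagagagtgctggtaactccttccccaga
The windows hold 24 CpG at the p14ARF start, 20 at the p16INK4a start, 18 at CDKN2B and 30 at CDK6, and the median over all 35116 windows of this length is 11. Their GC content is 66.8%, 66.8%, 66.4% and 80.0% in the same order, against a median of 58% over all windows. Of all windows, 76.3%, 67.6%, 63.2% and 87.6% hold fewer CpG than these, in that order. A promoter entry was matched for 8 of the 10 genes, with 14 windows in all. CCND1 and CCND2 were not among them. High CpG counts were not particular to the CDKN2 pair. The windows of CDKN2D, CDKN1B and CDK4 hold 33, 27 and 19 CpG, and the inner CDK6 start 23. The starts of CDKN2C hold 7, 35 and 10, and those of CCND3 26, 26 and 3. The E2F-type motifs TTTGGCGC and TTTCCCGC, searched on both strands, were in none of these 14 windows, while 0.550% and 1.39% of all windows hold them. No match says only that these letters are not in the window.

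The libraries held 31651742 to 101081643 counts, so the level that 3 counts stand for lay between 0.0289 and 0.0947 CPM (counts scaled to library size, with TMM, the trimmed mean of M values) and served as the detection floor. All 6 general pluripotency markers were detected, with summed levels of 4123 to 4300 CPM in PROTAC libraries, 4140 to 4539 CPM in UNC libraries and 3843 to 4124 CPM in DMSO libraries. All 7 naive and all 6 primed markers were present too. Of the 8 fibroblast markers, THY1 (179 to 228 CPM), COL1A2 (124 to 193 CPM), COL1A1 (33.8 to 103 CPM), TAGLN (16.5 to 55.0 CPM) and PDGFRB (0.750 to 2.02 CPM) were expressed in all 9 libraries, while COL3A1, DCN and LUM stayed at 0 to 0.0420 CPM. Levels in bulk RNA do not tell fewer expressing cells from less RNA per cell.

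Transcript levels of the 10 genes spanned more than 3 orders of magnitude on a scale per kilobase of exon. CCND2, the D cyclin best known from stem and germ cells, had the highest level, with a median over the 9 libraries of 163 RPKM (TMM-scaled CPM per kilobase of exon, range 109 to 189). CDKN1B and CCND1 followed at medians of 44.3 and 42.8 RPKM; their ranges overlapped, and CDKN1B was the higher of the pair in 6 of 9 libraries. CDK4 had a median of 22.1 RPKM, CCND3 of 7.17 RPKM and CDK6 of 1.89 RPKM. The INK4 genes filled the bottom of the order: CDKN2D 0.930 RPKM, CDKN2A 0.118 RPKM, CDKN2B 0.0290 RPKM, and CDKN2C a median of 0 with a highest value of 0.0203 RPKM. Apart from CDKN1B with CCND1 and CDKN2B with CDKN2C, the ranges of neighbours in this order did not overlap. Exon lengths are unions from GENCODE 29, and the annotation that the authors counted on is not given in the sources used here.

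**Figure D1:**
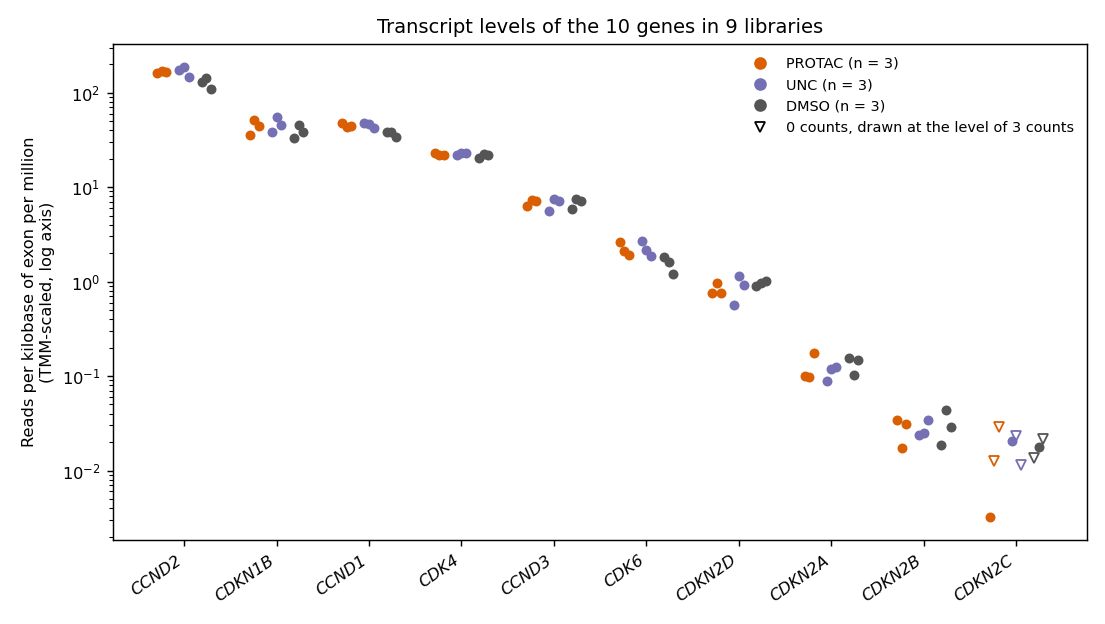
Level of each gene in the 9 libraries (y axis: TMM-scaled CPM per kilobase of exon, log scale; x axis: genes ordered by their median). Points are single libraries of PROTAC, UNC and DMSO cells, and open triangles are libraries with 0 counts drawn at the level of 3 counts. CCND2 stands at the top with a median of 163 and the 4 INK4 genes at the bottom, with CDKN2D at 0.930 and CDKN2A at 0.118.

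No tested INK4 gene passed the test under either compound, and the 2 Polycomb-target genes of the CDKN2 locus stayed at 44 counts or fewer per library. CDKN2A, which encodes p16INK4a and p14ARF from overlapping frames, had 41, 30 and 24 counts in PROTAC libraries, 40, 20 and 42 counts in UNC libraries and 44, 37 and 27 counts in DMSO libraries. As CPM these were 0.433, 0.420 and 0.757 under PROTAC, 0.385, 0.510 and 0.534 under UNC, and 0.667, 0.440 and 0.636 under DMSO. The 3 groups overlapped, and every library lay above its floor of 3 counts. Summed over a group, the level was 0.480 CPM in PROTAC libraries (exact 95% Poisson interval 0.389 to 0.587), 0.460 CPM in UNC libraries (0.375 to 0.558) and 0.561 CPM in DMSO libraries (0.460 to 0.677); such intervals cover counting error only.

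Changes were tested with edgeR's quasi-likelihood test, two-sided, with Benjamini-Hochberg adjustment over the 24187 genes that passed the expression filter, 9 of the 10 members among them. Libraries with the same replicate number deviated together, so each value is also given from a paired fit that carries the number as a block. The log2 fold change of CDKN2A in the paired fit was -0.18 for PROTAC against DMSO (95% interval -0.81 to 0.45, edgeR adjusted p = 0.849) and -0.33 for UNC against DMSO (-0.96 to 0.30, edgeR adjusted p = 0.564). The upper ends of these paired intervals correspond to 1.36-fold under PROTAC and 1.23-fold under UNC. By group alone the log2 changes were -0.16 (-0.87 to 0.55) and -0.29 (-0.99 to 0.42) for the same comparisons. Those intervals are wider, with upper ends of 1.47-fold under PROTAC and 1.34-fold under UNC. The counts are per gene, so p16INK4a and p14ARF transcripts cannot be told apart.

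CDKN2B encodes p15INK4b, the INK4 protein induced by TGF-beta in epithelial cells. It had 13, 5 and 4 counts in PROTAC libraries, 10, 4 and 11 counts in UNC libraries and 5, 15 and 5 counts in DMSO libraries, or 0.070 to 0.137 CPM, 0.096 to 0.140 CPM and 0.076 to 0.178 CPM in the 3 groups. These are 1 to 12 counts above the floor of 3, and the groups overlapped. In the paired fit the log2 fold change was -0.16 under PROTAC (95% interval -1.48 to 1.15, edgeR adjusted p = 0.943) and -0.17 under UNC (-1.47 to 1.13, edgeR adjusted p = 0.911). At this depth a change of up to 2.22-fold upwards under PROTAC, or 2.19-fold under UNC, lies inside the interval.

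CDKN2C (p18INK4c) was below the floor of 3 counts in all libraries except UNC replicate 1 and DMSO replicate 2. It had 1, 0 and 0 counts in PROTAC libraries, 7, 0 and 0 counts in UNC libraries, and 0, 5 and 0 counts in DMSO libraries. Libraries at 0 had floors of 0.0420 and 0.0947 CPM under PROTAC, 0.0765 and 0.0381 CPM under UNC, and 0.0455 and 0.0707 CPM under DMSO. Their exact 95% Poisson intervals reached 0.0516 and 0.116 CPM, 0.0941 and 0.0469 CPM, and 0.0559 and 0.0869 CPM in the same order. The gene did not pass the filter and was not tested, and no fold is given.

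CDKN2D (p19INK4d), an INK4 gene whose protein oscillates with the cell cycle, was the most abundant of the family. Its levels were 1.14, 1.46 and 1.14 CPM in PROTAC libraries, 0.85, 1.71 and 1.40 CPM in UNC libraries, and 1.36, 1.46 and 1.51 CPM in DMSO libraries. UNC replicate 1 was the lowest and UNC replicate 2 the highest of all 9, so the groups overlapped. The paired log2 fold changes were -0.19 under PROTAC (95% interval -0.61 to 0.23, edgeR adjusted p = 0.724) and -0.19 under UNC (-0.60 to 0.23, edgeR adjusted p = 0.630). By group alone they were -0.21 (-0.76 to 0.35) and -0.16 (-0.71 to 0.39) in the same order.

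**Figure D2:**
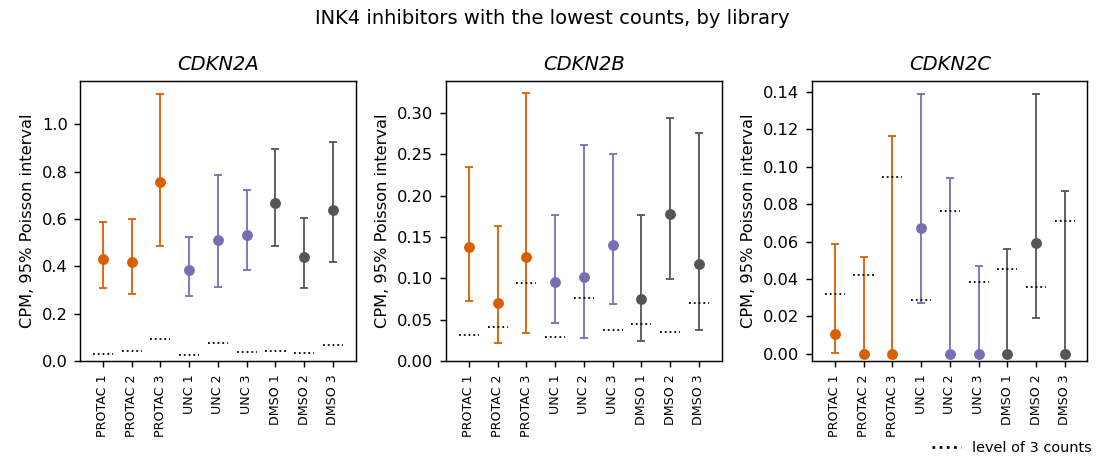
CDKN2A, CDKN2B and CDKN2C in each library (x axis: PROTAC, UNC and DMSO libraries; y axis: TMM-scaled CPM, with exact 95% Poisson intervals). Dotted marks show the level of 3 counts; CDKN2A lies above it in every library, CDKN2B by 1 to 12 counts, and CDKN2C is at 0 in 2 of 3 libraries of each group.

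The surroundings of the CDKN2 pair were likewise without a call. MTAP, the methylthioadenosine phosphorylase gene next to CDKN2A, ran at 41.5 to 56.5 CPM, with paired log2 changes of 0.08 under PROTAC and 0.06 under UNC (edgeR adjusted p = 0.525 and 0.596). DMRTA1, on the far side of CDKN2B, ran at 1.12 to 2.09 CPM with paired log2 changes of 0.10 and -0.20 (edgeR adjusted p = 0.853 and 0.562). The antisense RNA CDKN2B-AS1, known as ANRIL, had 0 to 6 counts per library and shares 341 exonic bases with CDKN2A on the opposite strand. CDKN2A-AS1 had 0 to 11 counts. The strand setting of the counting is not given in the sources used here, so a read in such shared bases could have been counted for either gene. A plus-strand entry, ENSG00000264545, at chr9:21802636-22029594 spans both genes and had 175 to 714 counts, far more than either, but shares no exonic base with them in GENCODE 29; its paired log2 changes were -0.01 under PROTAC and 0.03 under UNC (edgeR adjusted p = 0.992 and 0.904).

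CCND1 and CCND2 were higher under either compound than under DMSO, without overlap of the libraries, while for CCND3 the groups overlapped. CCND1, the D cyclin that responds to growth factor signals, had 231.5, 206.5 and 212.8 CPM in PROTAC libraries, 227.9, 225.1 and 204.7 CPM in UNC libraries, and 184.1, 183.4 and 162.0 CPM in DMSO libraries. The lowest value under a compound was above the highest DMSO value. Means were 217 ± 13.0 CPM under PROTAC, 219 ± 12.7 CPM under UNC and 177 ± 12.5 CPM under DMSO (SD, n = 3 each).

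CCND2 had 1167, 1227 and 1178 CPM in PROTAC libraries, 1238, 1352 and 1040 CPM in UNC libraries, and 927, 1011 and 780 CPM in DMSO libraries. UNC replicate 3, the lowest of the UNC libraries, and DMSO replicate 3, the lowest DMSO library, bear the same number. Within numbers 1, 2 and 3, the ratio of UNC to DMSO was 1.33, 1.34 and 1.33, and that of PROTAC to DMSO 1.26, 1.21 and 1.51.

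CCND3, the D cyclin known from lymphoid cells, had 36.8, 42.8 and 41.1 CPM in PROTAC libraries, 32.7, 43.3 and 41.8 CPM in UNC libraries, and 34.3, 43.9 and 41.6 CPM in DMSO libraries. Number 1 was the lowest in all 3 groups, and the groups overlapped.

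By group alone no member passed a false discovery rate of 0.05 in either comparison. That fit called 0.719% of all genes for UNC against DMSO (0.318% higher and 0.401% lower). Scaled by library size only, 41 genes were higher and 81 lower. For PROTAC against DMSO it called 0%. There 1200 of 24187 genes had an unadjusted edgeR p below 0.05, about the share that this cutoff passes when no gene differs. DESeq2 called 23 genes for PROTAC. In the group fit the adjusted p for UNC was 0.0847 for CCND1 and 0.105 for CCND2, and for PROTAC 0.938 for both (edgeR). DESeq2 by group called more genes for UNC against DMSO, 801 of 24187. Among them were 3 members, namely CCND1, CCND2 and CDK6. For PROTAC it called no member.

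In the paired fit 4 of the 9 tested members rose under UNC, where 13.5% of all genes were called (7.04% higher and 6.46% lower), and 3 of 9 rose under PROTAC, where 2.99% were called (2.01% higher and 0.984% lower). The split over all genes moved with the scaling. TMM gave 1703 genes higher and 1562 lower under UNC, and 486 higher and 238 lower under PROTAC. With library size only they were 1165 higher and 1917 lower under UNC, and 273 higher and 265 lower under PROTAC, and RLE scaling gave 1905 higher and 1473 lower under UNC. Under each of these scalings 4 members rose under UNC and 3 under PROTAC, and no member fell. The paired log2 fold change of CCND2 was 0.42 ± 0.0587 under UNC (SE; 1.33-fold, edgeR adjusted p = 3.08e-06) and 0.40 ± 0.0587 under PROTAC (1.32-fold, edgeR adjusted p = 5.16e-05). For CCND1 it was 0.31 ± 0.0514 under UNC (1.24-fold, edgeR adjusted p = 3.31e-05) and 0.30 ± 0.0514 under PROTAC (1.23-fold, edgeR adjusted p = 0.000509). CCND3 had paired log2 changes of -0.03 under UNC (95% interval -0.15 to 0.09) and 0.02 under PROTAC (-0.10 to 0.14), so a rise of the size seen for CCND1 lies outside both intervals. Both comparisons use the same 3 DMSO libraries and so are not independent of each other. CCND2 stayed called in all 12 paired fits that left out a library or a replicate number, in both comparisons. CCND1 did so for UNC; for PROTAC it was lost without replicate number 3 (edgeR adjusted p = 0.0575). The absence of overlap seen for CCND1, CCND2 and CDK6 is met by 8.34% of tested genes for UNC above DMSO and by 6.07% for PROTAC above DMSO.

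Overlapping transcripts touch both cyclins. On the plus strand, ENSG00000285901 shares 989 exonic bases with CCND2 and held 18.7% as many counts as CCND2; its paired log2 changes were 0.33 under PROTAC and 0.30 under UNC (edgeR adjusted p = 0.000128 and 6.27e-05), and their reads cannot be separated here. CCND2-AS1 had 2 to 55 counts, against 33111 to 128654 for CCND2. LTO1, which shares 497 exonic bases with CCND1 on the other strand, fell in the paired fit, by 0.25 under PROTAC and by 0.28 under UNC on the log2 scale (edgeR adjusted p = 0.0389 and 0.00399), the direction opposite to CCND1.

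**Figure D3:**
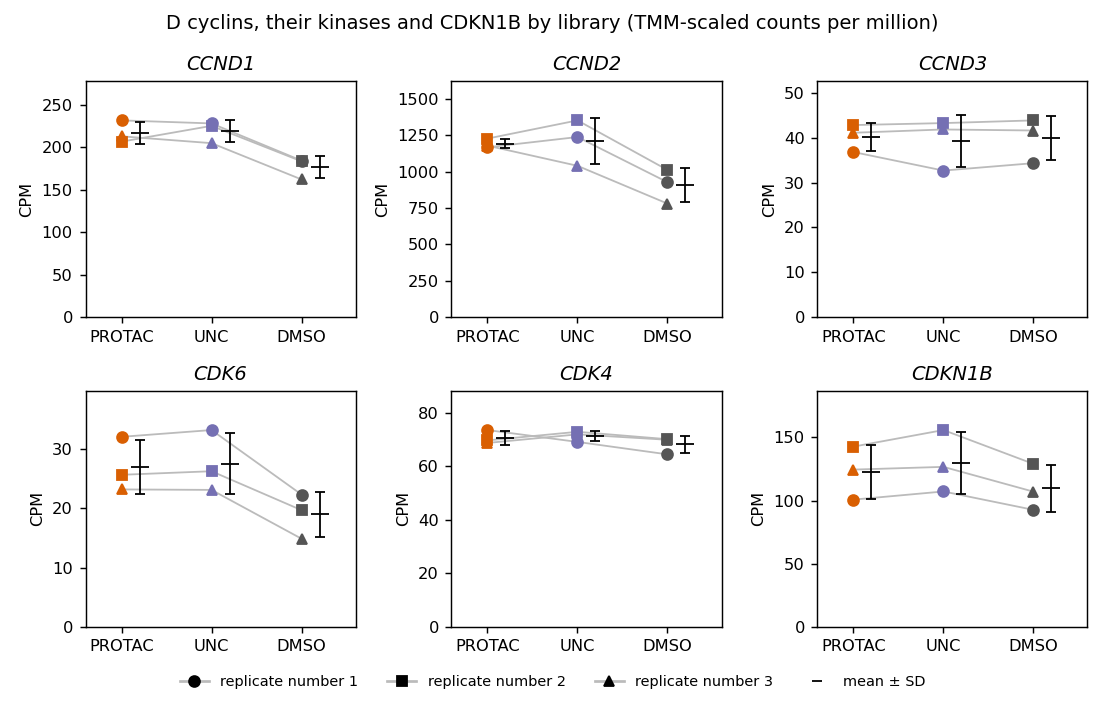
Levels of the D cyclins, CDK6, CDK4 and CDKN1B in PROTAC, UNC and DMSO libraries (y axes: TMM-scaled CPM from 0; symbols: replicate numbers, joined by grey lines; black bars: mean ± SD, n = 3). CCND1, CCND2 and CDK6 lie above every DMSO library under either compound, whereas for CCND3 and CDK4 the groups overlap and for CDKN1B the numbers keep their order in each group.

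CCND2 made up most of the D cyclin transcripts in every group. Of the summed reads per kilobase of exon of the 3 genes, CCND2 took 76.2 ± 1.17% in PROTAC libraries, 76.3 ± 1.62% in UNC libraries and 74.4 ± 1.43% in DMSO libraries (SD, n = 3 each). CCND1 took 20.6 ± 1.39% under PROTAC, 20.6 ± 1.31% under UNC and 21.6 ± 1.10% under DMSO. CCND3 took 3.18 ± 0.225% under PROTAC, 3.09 ± 0.603% under UNC and 4.08 ± 0.691% under DMSO. The exact two-sided permutation p under PROTAC was 0.2 for CCND2, 0.5 for CCND1 and 0.1 for CCND3. Under UNC it was 0.3, 0.4 and 0.2 in that order. The smallest p that 3 against 3 libraries allow is 0.1. Libraries were exchanged without regard to replicate number. Within each number the CCND2 share was higher, and the CCND3 share lower, under either compound than under DMSO. For numbers 1, 2 and 3 CCND2 took 76.6, 77.8 and 74.6% under UNC and 74.6, 75.6 and 72.8% under DMSO. The CCND1 share was lower in each number under UNC, but not in number 1 under PROTAC (22.1% against 22.0%). Shares were not tested within numbers.

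The kinases parted in the same way as the cyclins: CDK6 was higher under either compound, and for CDK4 the groups overlapped. CDK6 had 32.1, 25.7 and 23.2 CPM in PROTAC libraries, 33.2, 26.3 and 23.1 CPM in UNC libraries, and 22.3, 19.7 and 14.9 CPM in DMSO libraries. All 6 compound libraries lay above the highest DMSO library, the nearest by under 1 CPM, and in each group number 1 was highest and number 3 lowest. Within numbers 1, 2 and 3, the ratio of PROTAC to DMSO was 1.44, 1.30 and 1.56 and that of UNC to DMSO 1.49, 1.33 and 1.55. The paired log2 fold change was 0.51 ± 0.0679 under PROTAC (SE; 1.42-fold, edgeR adjusted p = 1.31e-05) and 0.54 ± 0.0675 under UNC (1.45-fold, edgeR adjusted p = 3.49e-07), the largest among the tested members in each comparison. It stayed called in all 12 paired fits that left out a library or a number. By group alone the edgeR adjusted p was 0.938 for PROTAC and 0.189 for UNC.

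CDK4 had 73.6, 69.7 and 68.8 CPM in PROTAC libraries, 69.1, 72.9 and 72.0 CPM in UNC libraries, and 64.5, 70.2 and 69.9 CPM in DMSO libraries. The groups overlapped, and the paired log2 changes were 0.05 under PROTAC (95% interval -0.06 to 0.16, edgeR adjusted p = 0.695) and 0.07 under UNC (-0.04 to 0.17, edgeR adjusted p = 0.496). TSPAN31 shares 1369 exonic bases with CDK4 on the other strand and had 16.8 to 19.9 CPM. MARCHF9 also overlaps CDK4 on the other strand, with no shared exonic base in GENCODE 29, and had 9.70 to 12.3 CPM. Per kilobase of exon, the ratio of CDK4 to CDK6 was 8.88, 10.5 and 11.5 in PROTAC libraries, 8.06, 10.7 and 12.1 in UNC libraries, and 11.2, 13.8 and 18.2 in DMSO libraries. CDK4 thus exceeded CDK6 in all 9 libraries, and the ratio was lower under a compound within each replicate number.

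**Figure D4:**
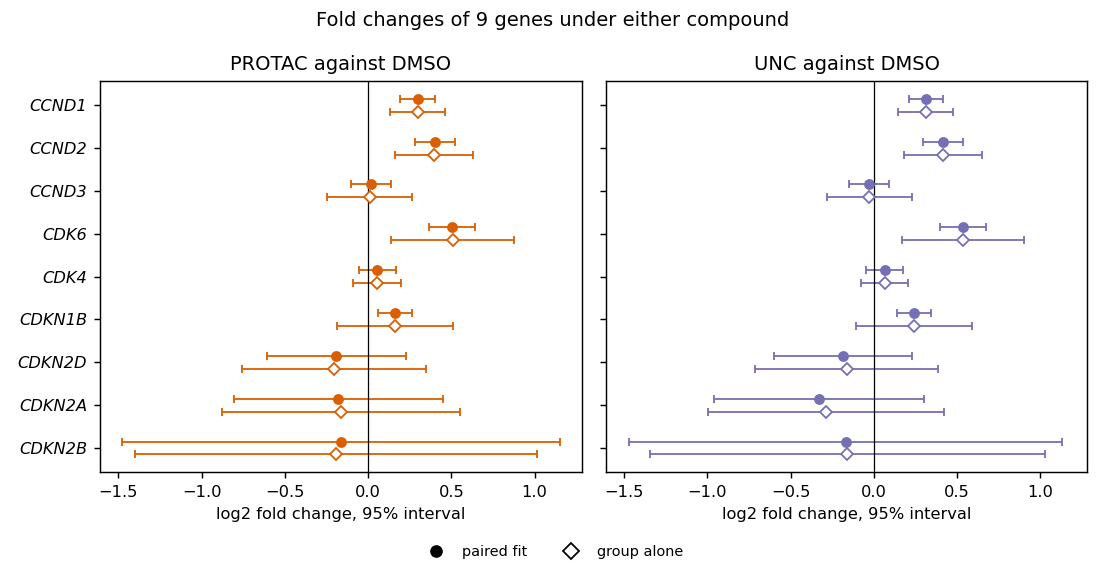
Log2 fold changes of the 9 tested genes for PROTAC against DMSO and UNC against DMSO (x axis, with 95% intervals; filled circles: paired fit, open diamonds: fit by group alone). CDK6, CCND2 and CCND1 lie to the right of 0 in both panels, at 0.51, 0.40 and 0.30 under PROTAC and 0.54, 0.42 and 0.31 under UNC in the paired fit; intervals widen towards the low-count INK4 genes.

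CDKN1B varied more between replicate numbers than between treatments. It had 100.7, 142.7 and 124.5 CPM in PROTAC libraries, 107.2, 155.8 and 126.6 CPM in UNC libraries, and 92.6, 129.0 and 107.0 CPM in DMSO libraries. The groups overlapped, but number 2 was highest and number 1 lowest in each, and each compound library lay above the DMSO library of its number. The within-number ratios to DMSO were 1.09, 1.11 and 1.16 for PROTAC and 1.16, 1.21 and 1.18 for UNC. In the paired fit the gene rose under UNC, by a log2 change of 0.24 ± 0.0496 (SE; 1.18-fold, edgeR adjusted p = 0.000682), and did not pass under PROTAC, at 0.16 ± 0.0498 (edgeR adjusted p = 0.0676); DESeq2 with the replicate block called it there, at 0.16 (adjusted p = 0.0303). The UNC call was lost without replicate number 2 (edgeR adjusted p = 0.0561), and by group alone the adjusted p was 0.609. GPR19 overlaps CDKN1B on the other strand, with no shared exonic base in GENCODE 29, and had 17.9 to 24.0 CPM. Its paired log2 changes were 0.03 under PROTAC and 0.06 under UNC (edgeR adjusted p = 0.899 and 0.652).

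The replicate number itself was tested in the paired fit. It was called for 4 of the 9 tested members, namely CDKN1B, CDK6, CCND3 and CCND2, and for 31.5% of all genes (edgeR F-test). Adjusted p was 7.28e-09 for CDKN1B, 1.03e-06 for CDK6, 9.73e-05 for CCND3 and 0.00208 for CCND2 (edgeR). CCND1 was at 0.0551, and CDK4 and the 3 tested INK4 genes were between 0.163 and 0.932.

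The compounds were given at different doses, 2.5 µM UNC6852 and 1 µM UNC1999, and no tested member passed the test between PROTAC and UNC libraries. By group alone 0.00827% of all genes were called, and in the paired fit 2.91%; DESeq2 by group called 129 genes and no member. In the paired fit the log2 difference, PROTAC minus UNC, was -0.03 for CDK6 (95% interval -0.17 to 0.10), -0.01 for CCND2 (-0.13 to 0.11), -0.01 for CCND1 (-0.12 to 0.09) and -0.08 for CDKN1B (-0.18 to 0.02). CDKN2A had 0.15 (-0.49 to 0.79). The adjusted p of the 9 tested members was between 0.533 and 0.999 (edgeR).

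Other genes of the G1 to S pathway were called as well. Of 33 further members (inhibitors, RB and E2F families, cyclin E and A, their kinases and regulators), 3 rose under PROTAC and none fell, and 6 rose and 1 fell under UNC, all in the paired fit, which called 2.99% of all genes for PROTAC and 13.5% for UNC; by group alone none was called. The median log2 change of the list was 0.05 under PROTAC and 0.06 under UNC, where the median of all tested genes was -0.01 in each. CDKN1C (p57KIP2), a maternally expressed CIP/KIP inhibitor, rose in both, by 0.41 under PROTAC and 0.38 under UNC (edgeR adjusted p = 0.00035 and 9.9e-05). Its levels were 26.7, 39.9 and 28.7 CPM under PROTAC, 24.4, 41.8 and 28.2 CPM under UNC and 21.9, 29.5 and 19.8 CPM under DMSO; the calls were lost without number 2 (edgeR adjusted p = 0.0643 and 0.0541). CDKN1A (p21CIP1), a target of p53, rose under PROTAC by 0.27 (edgeR adjusted p = 0.00539) but was lost without DMSO replicate 2, without DMSO replicate 3, without number 2 and without number 3 (edgeR adjusted p up to 0.158). The third gene that rose under PROTAC was E2F7, an atypical E2F repressor, named after its values were seen. MNAT1 rose under UNC by 0.28 (edgeR adjusted p = 0.00179) and was at 0.15 under PROTAC (edgeR adjusted p = 0.229). Its UNC call held in 11 of the 12 leave-one-out fits (edgeR adjusted p up to 0.0595).

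MYC, whose protein drives CCND2 and CDK4 transcription in other cells, was the member of that list that fell under UNC. It had 35.7, 40.7 and 26.9 CPM in UNC libraries and 48.4, 49.1 and 39.4 CPM in DMSO libraries, a paired log2 change of -0.42 ± 0.0651 (SE; edgeR adjusted p = 1.79e-05). PROTAC libraries had 56.8, 48.7 and 39.4 CPM, with a change of 0.08 ± 0.0648 against DMSO (edgeR adjusted p = 0.618), and PROTAC exceeded UNC by 0.50 (edgeR adjusted p = 3.35e-06). Of 12 E2F target genes of DNA replication, none was called under PROTAC and 2 rose under UNC in the paired fit: CDT1, which loads the replicative helicase, by 0.19, and MCM6, a subunit of that helicase, by 0.15 (edgeR adjusted p = 0.0108 and 0.0446). Of all genes, 2.99% were called under PROTAC and 7.04% rose under UNC in that fit. The median of the list was 0.02 under PROTAC and 0.03 under UNC. The CDT1 call was lost in 6 of the 12 leave-one-out fits (edgeR adjusted p up to 0.231) and that of MCM6 in 8 (up to 0.269).

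Among 14 known regulators of the CDKN2 locus, 1 rose and 1 fell under PROTAC, and 3 rose and 2 fell under UNC, again in the paired fit, against 2.99% of all genes called under PROTAC and 13.5% under UNC, and with none called by group alone. ETS1, an activator of the p16INK4a promoter in fibroblasts, had 20.7, 11.2 and 15.1 CPM in PROTAC libraries, 23.5, 15.1 and 19.2 CPM in UNC libraries and 11.5, 7.45 and 10.6 CPM in DMSO libraries. Its paired log2 change was 0.66 ± 0.0815 under PROTAC and 0.97 ± 0.0805 under UNC (SE; edgeR adjusted p = 3.04e-06 and 4.55e-11). KDM6B, a demethylase of H3K27, rose under UNC by 0.42 (edgeR adjusted p = 7.19e-07) and was at 0.15 under PROTAC (edgeR adjusted p = 0.144). PROTAC was below UNC for both genes (log2 difference -0.31 for ETS1 and -0.27 for KDM6B, edgeR adjusted p = 0.0185 and 0.00176).

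TBX3, a T-box repressor of the p14ARF promoter, fell under both, to 2.35, 3.57 and 3.66 CPM in PROTAC libraries and 2.49, 3.01 and 3.61 CPM in UNC libraries, against 3.75, 6.19 and 4.24 CPM in DMSO libraries. Paired log2 changes were -0.60 under PROTAC and -0.62 under UNC (edgeR adjusted p = 0.0107 and 0.0016). The PROTAC call was lost without PROTAC replicate 1, PROTAC replicate 2, DMSO replicate 2 or number 2 (edgeR adjusted p up to 0.240), and the UNC call without UNC replicate 2, DMSO replicate 2 or number 2 (edgeR adjusted p up to 0.177). CBX7, a PRC1 subunit that represses the locus, fell under UNC by 0.25 (edgeR adjusted p = 0.012) and was at -0.12 under PROTAC (edgeR adjusted p = 0.442). Its UNC call was lost without UNC replicate 1, UNC replicate 2, DMSO replicate 1, DMSO replicate 2 or number 2 (edgeR adjusted p up to 0.215). RNF2, the catalytic PRC1 subunit, was the third gene to rise under UNC and is named after its values were seen. The direction of these regulators is given beside CDKN2A and CDKN2B levels that did not pass the test in any comparison.

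Of the 4 core PRC2 genes, EZH2 rose under UNC by a paired log2 change of 0.24 (edgeR adjusted p = 0.00746), with 50.6, 60.4 and 48.6 CPM in UNC libraries and 47.3, 46.6 and 40.1 CPM in DMSO libraries. It was at 0.13 under PROTAC (edgeR adjusted p = 0.304). The UNC call was lost without UNC replicate 2, DMSO replicate 2, DMSO replicate 3 or number 2 (edgeR adjusted p up to 0.291). Of all genes, the paired fit called 13.5% under UNC (7.04% higher) and 2.99% under PROTAC. By group alone none of the 4 genes was called, and EZH2 under UNC was at an edgeR adjusted p of 0.302.

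Markers of cell state and of other cell types moved with the same comparisons; calls are from the paired fit, in which 2.99% of all genes were called under PROTAC and 13.5% under UNC. Summed trophoblast markers (6 genes, all detected) were 14.5 to 43.2 CPM in PROTAC libraries, 9.79 to 26.2 CPM in UNC libraries and 18.2 to 45.7 CPM in DMSO libraries; 1 of 6 fell under PROTAC and 5 of 6 under UNC. Summed fibroblast markers (8 genes, 5 tested) were 466.5 to 497.3 CPM under PROTAC, 387.2 to 437.6 CPM under UNC and 481.8 to 508.7 CPM under DMSO; LUM was at 0 in every library, and COL3A1 and DCN were at 0 in all DMSO libraries. Of the 5 tested, 1 fell under PROTAC (COL1A1, by 0.34 on the log2 scale), and under UNC 4 fell and 1 rose. Under UNC, TAGLN fell by 1.17, COL1A1 by 0.96, PDGFRB by 0.83 and COL1A2 by 0.32, and THY1 rose by 0.16 (edgeR adjusted p between 1.37e-13 and 0.0480). Of the primed markers, 1 of 6 fell under PROTAC and 3 of 6 under UNC. Of the naive markers, 3 of 7 rose under PROTAC and 2 of 7 under UNC. Of the pluripotency markers, 1 of 6 and 3 of 6 rose in the same order. Amnion markers (4 genes, 3 tested) summed to 7.65 to 11.2 CPM under PROTAC, 5.20 to 7.22 CPM under UNC and 8.83 to 10.8 CPM under DMSO, with none called under PROTAC and 1 lower under UNC; endoderm markers (4 genes, 2 tested) had sums of 4.31 to 5.77, 4.21 to 6.53 and 4.82 to 7.78 CPM in that order, with none called. By group alone, which called 0.719% of all genes under UNC and 0% under PROTAC, no marker was called under PROTAC. Under UNC that fit called 1 of 6 trophoblast, 2 of 5 tested fibroblast, 1 of 6 primed and 1 of 3 tested amnion markers as lower. It called 1 of 7 naive markers as higher. CGA, a trophoblast marker, ran from 1.55 to 24.6 CPM and was called in neither fit. The part of these differences in the levels of CCND1, CCND2, CDK6 and CDKN1B was not tested.

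Genes with the most similar profile over the 9 libraries were found among 10069 genes with a mean of at least 10 CPM, by Pearson's r of log2 CPM; since groups and replicate numbers shape every profile, r is a description only. For CCND2 they were ALDH3A2 (r = 0.988) and SLC8A2 (0.971), for CCND1 DIPK2A (0.978) and GALNT2 (0.978), for CDK6 VASH2 (0.970) and IGF1R (0.967), and for CDKN1B PROCR (0.984) and EIF2AK3 (0.982). CDKN2A, at 20 to 44 counts, reached 0.894 at most, with EGFL7.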

How the data were processed

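RNA from 9 libraries of HNES1 cells on day 5 was analysed. The table deposited by the authors holds raw counts, 1 whole number per gene and library. Per the submitters' processing notes, the tools were Trim Galore 0.6.10 and HISAT2 2.2.1 and the build GRCh38. Not given in the sources used here: how reads were assigned to genes, on which annotation and with which strand setting. The labels' protocols name ribosomal RNA depletion, while the molecule field reads polyA RNA. Of 56312 entries, 5 had no identifier and were kept by symbol, and 0 columns belonged to other samples.

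The software was R 4.3.3 with edgeR 4.0.16. Counts were scaled by TMM and filtered with filterByExpr by group with a minimum count of 10 (24187 genes); robust quasi-likelihood fits took in all 9 libraries, with calls at a false discovery rate of 0.05. Group alone was the main fit; the paired fit adds the replicate number. The design text states 3 independent runs, but no label says that a number marks a run. Same-numbered libraries deviated together (correlations 0.106 to 0.472, above the threshold of 0.1 in all 9 pairs). Correlations for different numbers were -0.324 to 0.0753. Deviations were taken from the mean of each group, so positive values for the same number force lower ones for different numbers. The second range is thus no separate evidence of pairing. The biological coefficient of variation was 13.2% by group and 6.09% paired. Within each group, no library was a copy of another (chi-square over degrees of freedom 10.7 to 37.4), and pairs across groups were not compared.

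Alternatives were RLE scaling, library size alone, DESeq2 1.42.0, no filter and leaving out each library or number. Exact permutation tests used SciPy 1.17.1. Floors are 3 counts. The fits were tested on simulated data. Genes were named from the 10 members, up to 4 genes per list with the smallest p among those called, locus neighbours, overlapping entries and the 2 most similar profiles. Not all of these appear in the text. Several marker genes and similar profiles are left out, as are some entries overlapping a member with 12 counts or fewer per library. Members, lists and the named rule were chosen with earlier results of these data known.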

Additional observations from a re-analysis of the deposited data

How the results depend on the processing

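The replicate block left the members' log2 changes close to those by group alone and changed the calls: 4 members for UNC against DMSO and 3 for PROTAC against DMSO, where group alone called 0, with 3265, 724 and 703 genes called for UNC against DMSO, PROTAC against DMSO and PROTAC against UNC (174, 0 and 2 by group alone). DESeq2 by group called 3 members (CCND1, CCND2 and CDK6) and 801 genes for UNC against DMSO, 23 genes for PROTAC against DMSO and 129 for PROTAC against UNC. Without the expression filter, 39372 genes and all 10 members were tested. The same 3 members and 834 genes were then called for UNC against DMSO. For PROTAC against DMSO 2 members (CCND2 and CDK6) and 72 genes were called, and for PROTAC against UNC 246 genes. RLE scaling gave 1 gene for PROTAC against UNC. Leaving out each library or number in turn, genes called by group alone ran between 0 (without number 2 or without number 3) and 277 (without UNC replicate 1) for UNC against DMSO and between 0 and 35 (without number 1) for PROTAC against UNC; in the paired fit the lowest counts were those without number 2, and the ranges were 1197 to 3794 for UNC against DMSO, 147 to 639 for PROTAC against DMSO, 319 to 924 for PROTAC against UNC and 2892 to 7875 for the replicate number. Members called in the paired fit numbered 4 for UNC against DMSO (3 without number 2, where CDKN1B was lost) and 3 for PROTAC against DMSO (2 without number 3, where CCND1 was lost, and 4 with DESeq2 and the block, which added CDKN1B). The cause of these shifts was not tested; fits without a library or number rest on fewer samples, and a group left with 2 libraries takes its spread from the others too.

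None of the log2 changes that turned sign passed the test in any setting where it did so. By group alone, leaving out libraries or numbers gave -0.43 to 0.0896 for CDKN2A, -0.0874 to 0.0853 for CCND3 and -0.018 to 0.0842 for CDK4 in PROTAC against DMSO, and -0.37 to 0.0944 for CDKN2D and -0.12 to 0.0912 for CCND3 in UNC against DMSO. In the paired fit the same ranges were -0.36 to 0.0906 for CDKN2A, -0.037 to 0.047 for CCND3, -0.018 to 0.087 for CDK4 and -0.014 to 0.16 for MYC in PROTAC against DMSO, and -0.40 to 0.068 for CDKN2D and -0.056 to 0.015 for CCND3 in UNC against DMSO. With library size only, CCND3 in PROTAC against DMSO was -0.013 by group and -0.0070 paired. For PROTAC against UNC by group alone the ranges were -0.064 to 0.040 for CCND1, -0.12 to 0.065 for CCND2, -0.081 to 0.11 for CCND3, -0.065 to 0.015 for CDK4, -0.17 to 0.14 for CDK6, -0.21 to 0.069 for CDKN1B, -0.14 to 0.32 for CDKN2A, -0.097 to 0.092 for CDKN2B and -0.30 to 0.16 for CDKN2D. In the paired fit they were -0.058 to 0.043 for CCND1, -0.12 to 0.051 for CCND2, -0.021 to 0.077 for CCND3, -0.074 to 0.021 for CDK4, -0.065 to 0.0014 for CDK6, -0.029 to 0.34 for CDKN2A, -0.064 to 0.099 for CDKN2B and -0.26 to 0.15 for CDKN2D. CDKN2B in PROTAC against UNC was 0.0038 with the block, -0.0025 with the block and RLE scaling, and -0.0028 with the block and DESeq2. Differences in D cyclin share between PROTAC and UNC, in percentage points, ran between -0.75 and 0.62 for CCND1, -0.94 and 0.66 for CCND2 and -0.21 and 0.40 for CCND3.

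Depth limits the INK4 genes: CDKN2B and CDKN2C rest on 0 to 15 counts per library and CDKN2A on 20 to 44. CDKN2B passed the filter in 5 of the 12 fits without a library or number. Groups hold 3 libraries each, from 1 cell line, and the pairing of numbers was inferred from the data. The paired versions of the other alternatives were added after seeing the data. Per-gene counts do not separate the transcripts of CDKN2A.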
